A study of Mus musculus with 8 samples.

Results

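The chromatin at Runx1, Runx2, Runx3 and Cbfb was examined in ATAC-seq peak lists of mouse bone marrow progenitors. The members are the 4 genes of the core-binding factor, and every peak overlapping their gene bodies or the 50 kb on either side of them was taken (mm10, GENCODE annotation). Peaks of all libraries that shared a base were merged into regions, which gave 154 regions in the 4 windows of 123260 in all. The windows held 54 regions at Runx1, 57 at Runx2, 26 at Runx3 and 17 at Cbfb.

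RUNX proteins are transcription factors that bind DNA through the Runt domain, and CBFβ, the product of Cbfb, does not bind DNA itself but raises the affinity of its RUNX partner. Runx1 is required for the emergence of hematopoietic stem cells in the embryo and regulates myeloid, lymphoid and megakaryocytic differentiation in the adult, Runx2 is known above all as the master regulator of bone formation, and Runx3 acts in T cell and neuronal development. Each Runx gene is transcribed from a distal and a proximal promoter that give proteins with different amino termini, and an enhancer in the intron that follows the distal promoter of Runx1 is active in emerging and adult blood stem cells.

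ATAC-seq, in which the Tn5 transposase cuts and tags open chromatin, was performed on LSK+ cells, the stem and multipotent cells sorted for Sca-1 and c-Kit without lineage markers, and LSK- cells, the progenitors that carry c-Kit but neither Sca-1 nor lineage markers, of 4.5-month-old female mice on a 129Sv4/Jae x B6 background. WT cells were compared with XistΔ/Δ cells, in which both floxed (2lox) Xist alleles had been deleted by Vav-iCre, a Cre recombinase driven by the Vav1 promoter, so that the deletion is not restricted to LSK+ or LSK- cells. Whether the WT mice carried floxed alleles or the Cre is not given in the sources used here. Each of the 4 groups (LSK+ WT, LSK+ XistΔ/Δ, LSK- WT and LSK- XistΔ/Δ) had 2 libraries of about 10000 cells each, for which the labels do not say how many mice they came from, so that p-values measure the spread between these libraries. In such bulk libraries, fewer cells with an open region and less opening per cell cannot be told apart.

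The lists held from 29829 to 91590 peaks on the autosomes and the X chromosome, and the XistΔ/Δ list was the longer in each of the 4 pairs of like cell type and replicate number. The most common background pileup of a list, a proxy for its depth, ranged from 0.482 fragments in LSK+ WT replicate 2 to 3.87 in LSK- XistΔ/Δ replicate 1. The replicate 1 libraries shared a run code in their peak names and the replicate 2 libraries shared another. Accessibility is therefore given as the percentile of a region's strongest peak within its own list (100 for the strongest peak and 0 where none was listed), and again in equal-length lists of the 29829 strongest peaks of each library. Value lists give replicate 1 before replicate 2, WT before XistΔ/Δ. A percentile of 0 says only that no peak passed the caller's threshold, which depends on depth. Promoters of the sort gene Kit and of Cd34 and Spi1 had a peak in all 8 libraries, and 8 of 10 lineage markers had none in any library. Of the other 2, 1 was higher in LSK- without overlap and was called by limma in equal-length lists with a replicate block, and the part of lineage cells in the results was not tested. Of 10 LSK- markers, 9 were tested and 2 were higher in LSK- without overlap, against 1.77% of all promoters. Gata1 had a promoter peak in the 4 LSK- libraries and in no LSK+ library, and Epor ranked above in LSK- without overlap. At the other LSK- markers tested the cell types overlapped. Of 10 LSK+ markers, no promoter separated the cell types, and the promoter of Ly6a, which encodes Sca-1, had no peak in any library.

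The sequences at the start of the 3 Runx genes share a word that is central to the family, and it is shown first because it lies inside merged regions. The longest stretch common to the 3 distal promoters in RefSeq (GRCm38.p6, from 250 bases before to 50 after the start) was 18 bases long and contains the RUNX motif TGTGGT, here read as its reverse complement, as a tandem pair in capitals.
Shared word: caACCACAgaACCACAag
It occurred in 4 of 32851 RefSeq promoters (0.0122%). These were the distal promoters of Runx1, Runx2 and Runx3 and the promoter of Gm16225, which holds the same copy as Runx3. The word lay at chr16:92826031-92826048 in Runx1, at chr17:44814589-44814606 in Runx2 and at chr4:135120509-135120526 in Runx3. Its first base was at position 26 from the RefSeq start in Runx1, at 21 in Runx2 and at -136 in Runx3. All 3 copies were inside a merged region, 75, 126 and 24 bp from the strongest summit of Runx1, Runx2 and Runx3. The region of Runx2 was held by 6 libraries and the other 2 by 8. Whether a copy lies inside the peak of each library was not tested. At least 2 copies of TGTGGT on either strand were found in 1.81% of RefSeq promoters. Of the 6 RefSeq promoters of the members, the 3 distal ones contained TGTGGT or TGCGGT, as did 22.4% of all, and neither was found in those of the proximal promoters of Runx1 and Runx3 or of Cbfb. A match is a description of the letters and not evidence of binding.

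The next sequences, from the coding strand of each gene, are the windows that the comparisons turn on. Capitals mark motifs on either strand. The RUNX motifs were TGTGGT or TGCGGT. Those for GATA factors were AGATAA or TGATAA, and the motif searched for ETS factors was AGGAAG. The intronic windows are 250 bases around the strongest summit and the promoters are the 250 bases before the RefSeq start. The first is the Runx1 region closest to 23 kb, the distance at which the known enhancer lies, the next is the Runx1 region with the largest difference between the cell types, and the last 3 compare a distal with a proximal Runx1 promoter and with the strongest promoter of the family.
Runx1 +24.4 kb (chr16:92801657-92801906, minus strand): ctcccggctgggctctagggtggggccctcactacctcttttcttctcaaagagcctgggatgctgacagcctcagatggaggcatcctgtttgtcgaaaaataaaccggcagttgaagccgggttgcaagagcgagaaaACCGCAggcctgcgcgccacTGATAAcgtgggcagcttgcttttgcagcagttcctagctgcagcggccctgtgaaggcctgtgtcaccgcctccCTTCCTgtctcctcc
Runx1 +61.2 kb (chr16:92764834-92765083, minus strand): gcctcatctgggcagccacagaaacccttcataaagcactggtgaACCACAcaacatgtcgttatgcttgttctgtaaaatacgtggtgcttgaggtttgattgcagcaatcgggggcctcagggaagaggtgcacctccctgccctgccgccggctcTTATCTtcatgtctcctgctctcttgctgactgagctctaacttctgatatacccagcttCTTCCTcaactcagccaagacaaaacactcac
Runx1 distal promoter (chr16:92826075-92826324, minus strand): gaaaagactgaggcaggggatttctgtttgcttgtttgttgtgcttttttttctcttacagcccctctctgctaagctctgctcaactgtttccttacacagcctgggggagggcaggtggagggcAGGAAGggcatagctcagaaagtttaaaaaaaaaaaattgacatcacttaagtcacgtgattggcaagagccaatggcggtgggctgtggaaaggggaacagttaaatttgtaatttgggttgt
Runx1 proximal promoter (chr16:92697330-92697579, minus strand): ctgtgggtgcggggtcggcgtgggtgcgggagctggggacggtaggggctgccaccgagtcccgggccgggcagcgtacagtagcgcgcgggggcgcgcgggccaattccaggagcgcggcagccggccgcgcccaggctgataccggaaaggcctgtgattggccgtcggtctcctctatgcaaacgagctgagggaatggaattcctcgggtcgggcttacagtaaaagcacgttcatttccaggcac
Runx3 distal promoter (chr4:135120395-135120644, plus strand): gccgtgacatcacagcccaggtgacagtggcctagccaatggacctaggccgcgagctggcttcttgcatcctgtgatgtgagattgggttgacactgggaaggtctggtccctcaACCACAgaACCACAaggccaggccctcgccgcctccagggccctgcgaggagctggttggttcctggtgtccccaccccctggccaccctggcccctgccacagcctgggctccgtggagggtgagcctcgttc
The copies of the shared word in Runx1 lie after its RefSeq start and so outside the printed stretch. The window at +24.4 kb held 1 RUNX, 1 GATA and 1 ETS motif, and the window at +61.2 kb held the same numbers. The proximal Runx1 promoter had a GC content of 67.6% and 27 CpG dinucleotides, whereas the distal one had 45.6% and 2. The same contrast was seen in Runx3, with 78.8% and 38 CpG in the proximal and 65.2% and 8 in the distal promoter. The Cbfb promoter, at 69.2% and 25 CpG, resembled the proximal ones in composition.

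To ask how the Runx1 locus is opened in the cell types, its regions were followed from the distal start (chr16:92826149, minus strand). The distal promoter was open in every library. The region, chr16:92825262-92826473, overlaps the first exon and stood at percentiles of 89.0 and 61.6 (LSK+ WT), 87.7 and 83.6 (LSK+ XistΔ/Δ), 84.5 and 74.1 (LSK- WT) and 84.5 and 78.7 (LSK- XistΔ/Δ) (replicates 1 and 2). The groups overlapped, and the mean difference between LSK+ and LSK- was 0.027 points (SE 6.39, limma with Benjamini-Hochberg adjustment over 92019 regions, adjusted p = 0.999).

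The proximal promoter (chr16:92697214-92699007, in an intron of the transcript from the distal start) ranked lower in LSK+ than in LSK- libraries. It stood at 49.8 and 31.1 (LSK+ WT), 57.0 and 74.7 (LSK+ XistΔ/Δ), 76.2 and 76.1 (LSK- WT) and 88.6 and 82.8 (LSK- XistΔ/Δ). All 4 LSK- libraries were above all 4 LSK+ libraries, the closest being 76.1 in LSK- WT replicate 2 and 74.7 in the second LSK+ XistΔ/Δ library. The summits of the strongest peaks spread over 1398 bp, so that libraries may be ranked by different peaks of a broad open region. The difference was -27.8 points (SE 7.85) and did not pass the threshold (adjusted p = 0.229). In equal-length lists, the groups overlapped, as the region was absent from both LSK+ replicate 1 libraries and stood at 46.4 in LSK+ XistΔ/Δ replicate 2 and at 43.3 in LSK- WT replicate 1. There the difference was -41.2 points, which limma called with a replicate block (SE 10.8, adjusted p = 0.0425) and not without it (adjusted p = 0.147). The block in equal-length lists was chosen after the data were seen.

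**Figure D1:**
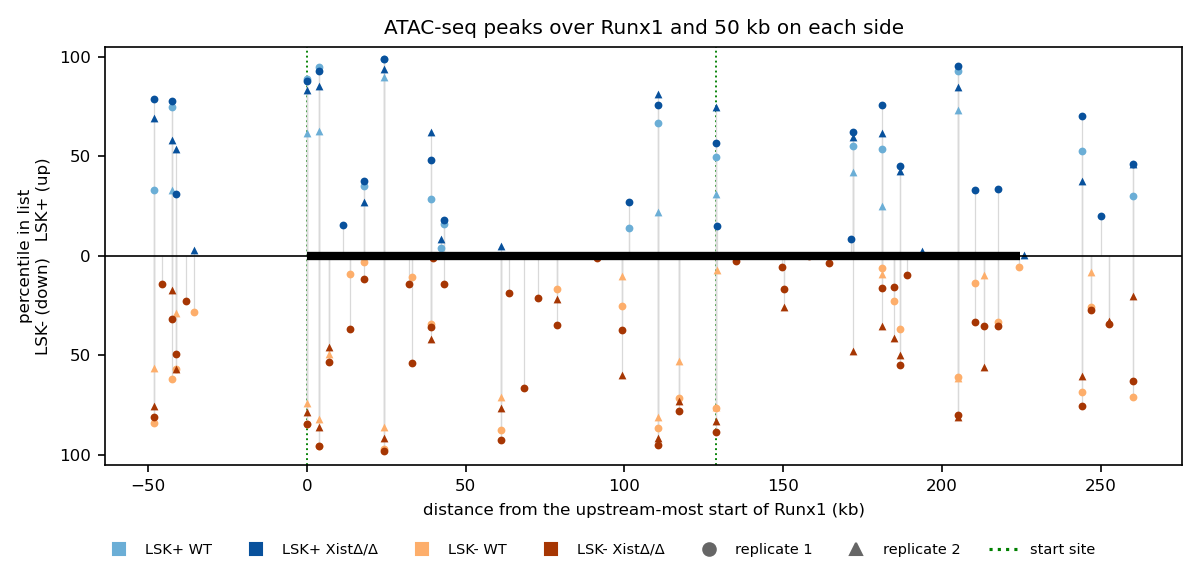
Peaks over Runx1, with the percentile of each region's strongest peak in each library against the distance from the distal start in kb. LSK+ libraries point up and LSK- libraries down, circles are replicate 1 and triangles replicate 2, the black bar is the gene body and dotted lines mark the distal and proximal starts. The regions at 61.2 and 117.2 kb have high points on the LSK- side and at most 1 low point on the LSK+ side, while the region at 24.4 kb is high on both.

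The region closest to 23 kb was the strongest of the 54 Runx1 regions in each of the 8 libraries. Its summit lay 24.4 kb from the distal start and 23.9 kb from the start codon of the transcript from that start, in intron 2 (chr16:92800768-92802189). It stood at 98.97 and 90.0 (LSK+ WT), 98.8 and 94.0 (LSK+ XistΔ/Δ), 96.9 and 85.8 (LSK- WT) and 98.1 and 91.7 (LSK- XistΔ/Δ). It was at 85.8 or higher in every list and above the distal promoter in all 8. The number of fragments piled up at its summit ranged from 70 in LSK+ WT replicate 2 to 397 in LSK- XistΔ/Δ replicate 1, the libraries with the lowest and the highest background. Neither cell type (2.31 points, SE 3.38, adjusted p = 0.746) nor genotype (2.73 points, SE 3.38, adjusted p = 0.722) passed the threshold in the limma fit. A further region 3.9 kb from the distal start (chr16:92821918-92822801) was open in every library as well, between 62.8 and 95.7.

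The largest differences between the cell types at Runx1 were found in the same intron, between the distal and proximal promoters. At +61.2 kb (chr16:92764614-92765301), no peak was listed in 3 of the LSK+ libraries, the second XistΔ/Δ library stood at 4.77, and the LSK- libraries stood at 87.6 and 70.9 (WT) and at 92.5 and 76.5 (XistΔ/Δ). The only LSK+ peak had 11 fragments at its summit, against 76, 38, 215 and 49 in the LSK- libraries. As the region was chosen for having no overlap, the cell types were by definition apart in both replicate numbers and both genotypes.
The difference was -80.7 points (SE 13.3), the largest of the members, with an adjusted p of 0.136 in the limma fit, the lowest of the members. At +117.2 kb, no LSK+ library had a peak and the LSK- libraries stood at 71.5 and 52.9 (WT) and 78.1 and 73.1 (XistΔ/Δ) (difference -68.9, SE 13.7, adjusted p = 0.145). Likewise, at +99.1 kb (chr16:92726683-92727484) peaks were listed in the 4 LSK- libraries only, at 25.3, 9.92, 37.4 and 59.7. These 3 regions were chosen after their values were seen, because the cell types do not overlap there.

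Other Runx1 regions differed by degree. At +110.4 kb (chr16:92715333-92716373), the percentiles were 67.0 and 22.1 (LSK+ WT), 75.8 and 81.6 (LSK+ XistΔ/Δ), 86.7 and 80.8 (LSK- WT) and 95.3 and 91.3 (LSK- XistΔ/Δ). In equal-length lists all 4 LSK- libraries, from 68.2 to 85.4, were above the LSK+ libraries, from 22.1 to 61.0. The region 48.1 kb upstream of the distal start (chr16:92873805-92874351) stood at 33.4 and 0 (LSK+ WT), 79.0 and 69.1 (LSK+ XistΔ/Δ), 84.1 and 56.5 (LSK- WT) and 81.1 and 75.5 (LSK- XistΔ/Δ). The opposite order was seen in the 3′ part of the gene. At +205.2 kb (chr16:92620625-92621579), LSK+ libraries stood at 93.2 and 73.3 (WT) and 95.6 and 84.9 (XistΔ/Δ), and LSK- libraries at 60.8 and 61.5 (WT) and 80.2 and 80.8 (XistΔ/Δ). In equal-length lists the LSK+ values, from 68.1 to 87.9, were all above the LSK- values, from 6.55 to 59.7.

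Over the 4 loci, no difference between the cell types was called. Of 108 member regions held by at least 2 libraries, 0 passed an adjusted p of 0.05 in the limma fit, as did 0 of 92019 regions in all (0.0% in each direction). An unadjusted p under 0.05 was found for 25 member regions and for 14580 regions in all. Other fits of the same comparison did make calls. With equal-length lists, limma called 2 of 49 member regions, both higher in LSK- (Runx1 +61.2 and +110.4 kb, adjusted p = 0.0396 and 0.0483), where 2.08% of 41782 regions were called higher in LSK+ and 1.91% higher in LSK-. Without the mean-variance trend, limma called 2 of 108 in whole lists (Runx1 +61.2 and +117.2 kb, both with adjusted p = 0.0146), where 0.611% of all regions were called higher in LSK+ and 1.68% higher in LSK-. A replicate block gave 2 calls in whole lists, at the same 2 regions, against 0.876% of all regions higher in LSK+ and 2.1% higher in LSK-. The block in equal-length lists was a combination chosen after the data were seen. With it, limma called 8 of 49, of which 3 were higher in LSK+ (7.0% of all regions) and 5 in LSK- (5.29%). Higher in LSK+ were Runx1 +205.2 kb, Runx2 +358.9 kb and Cbfb +89.2 kb (adjusted p = 0.0451, 0.0421 and 0.0349). Higher in LSK- were Runx1 +61.2, +110.4 and +117.2 kb (0.0114, 0.0161 and 0.0260), the proximal Runx1 promoter and Runx2 +142.4 kb (0.0317).

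Counting the regions whose cell types do not overlap gave a description without a test. LSK- was above LSK+ in 5 of 108 member regions (4.63%), against 4.78% of all regions tested, and LSK+ was above LSK- in 3 (2.78%), against 2.75%. The members as a whole were therefore near the background. The 5 regions higher in LSK- were the 3 intronic regions and the proximal promoter of Runx1, named above, and a region 58.7 kb from the distal start of Runx3. Peaks in the 4 LSK- libraries and no LSK+ library were found in 2 member regions (2.84% of all regions), and the reverse in 2 (0.785% of all). By gene, the 5 were 4 of 35 regions at Runx1, 0 of 38 at Runx2, 1 of 21 at Runx3 and 0 of 14 at Cbfb. In equal-length lists, 8 of 49 member regions were higher in LSK+ (16.3%), against 9.24% of all, and 6 were higher in LSK- (12.2%), against 7.72%.

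At Runx2 the promoters were weak and the strongest peaks were intronic. The distal promoter (chr17:44814191-44815135, in an exon, also overlapped by Supt3) stood at 20.8 and 8.77 (LSK+ WT), 55.2 and 51.9 (LSK+ XistΔ/Δ) and 9.74 and 43.6 in replicate 1 of LSK- WT and XistΔ/Δ, and was absent from both LSK- replicate 2 libraries. The proximal promoter (chr17:44735202-44736742) stood at 48.5 and 57.1 (LSK+ WT), 45.9 and 77.8 (LSK+ XistΔ/Δ), 51.3 and 63.7 (LSK- WT) and 64.1 and 64.1 (LSK- XistΔ/Δ). Over all promoters with a peak in at least 2 libraries, the median of the mean percentile was 79.2, so both Runx2 promoters, at means of 23.7 and 59.1, were below it. Smaller regions beside the proximal start, at +76.3 and +80.1 kb, reached at most 24.8 and 51.0.

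The strongest region of the Runx2 window outside promoters was in an intron 160.0 kb from the distal start (chr17:44654286-44655209). It stood at 98.6 and 85.3 (LSK+ WT), 99.5 and 94.5 (LSK+ XistΔ/Δ), 98.0 and 79.1 (LSK- WT) and 94.4 and 89.8 (LSK- XistΔ/Δ). It thus ranked at 79.1 or higher in every list and above both promoters of the gene in all 8. Its summit window of 250 bases (chr17:44654654-44654903) held 2 ETS motifs and 1 GATA motif and no RUNX motif. The start of Supt3, which encodes a subunit of transcriptional coactivator complexes and overlaps Runx2, lay 37.7 kb from the distal start and ranked slightly higher on average, at 93.5 against 92.4 over the 8 libraries.
Among the other strong Runx2 regions, that at +142.4 kb (chr17:44672098-44673139) was higher in LSK- without overlap in equal-length lists, from 69.1 to 87.7 against 46.9 to 63.6 in LSK+. Regions at +200.6 kb (chr17:44613826-44614642) and +358.9 kb (chr17:44455641-44456226, downstream of the gene) were higher in LSK+, at 51.1 to 71.2 against 0 to 42.2 and at 26.4 to 47.9 against 0 to 12.1. None passed the threshold in the limma fit of whole lists (adjusted p = 0.417, 0.425 and 0.417). At +124.2 kb (chr17:44690354-44691030) the percentiles ranged from 20.5 to 76.8 and the cell types overlapped. A region at +355.6 kb (chr17:44459127-44459527) had a peak in the 4 LSK+ libraries, at 39.3, 16.3, 33.6 and 10.9, and in no LSK- library.

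**Figure D2:**
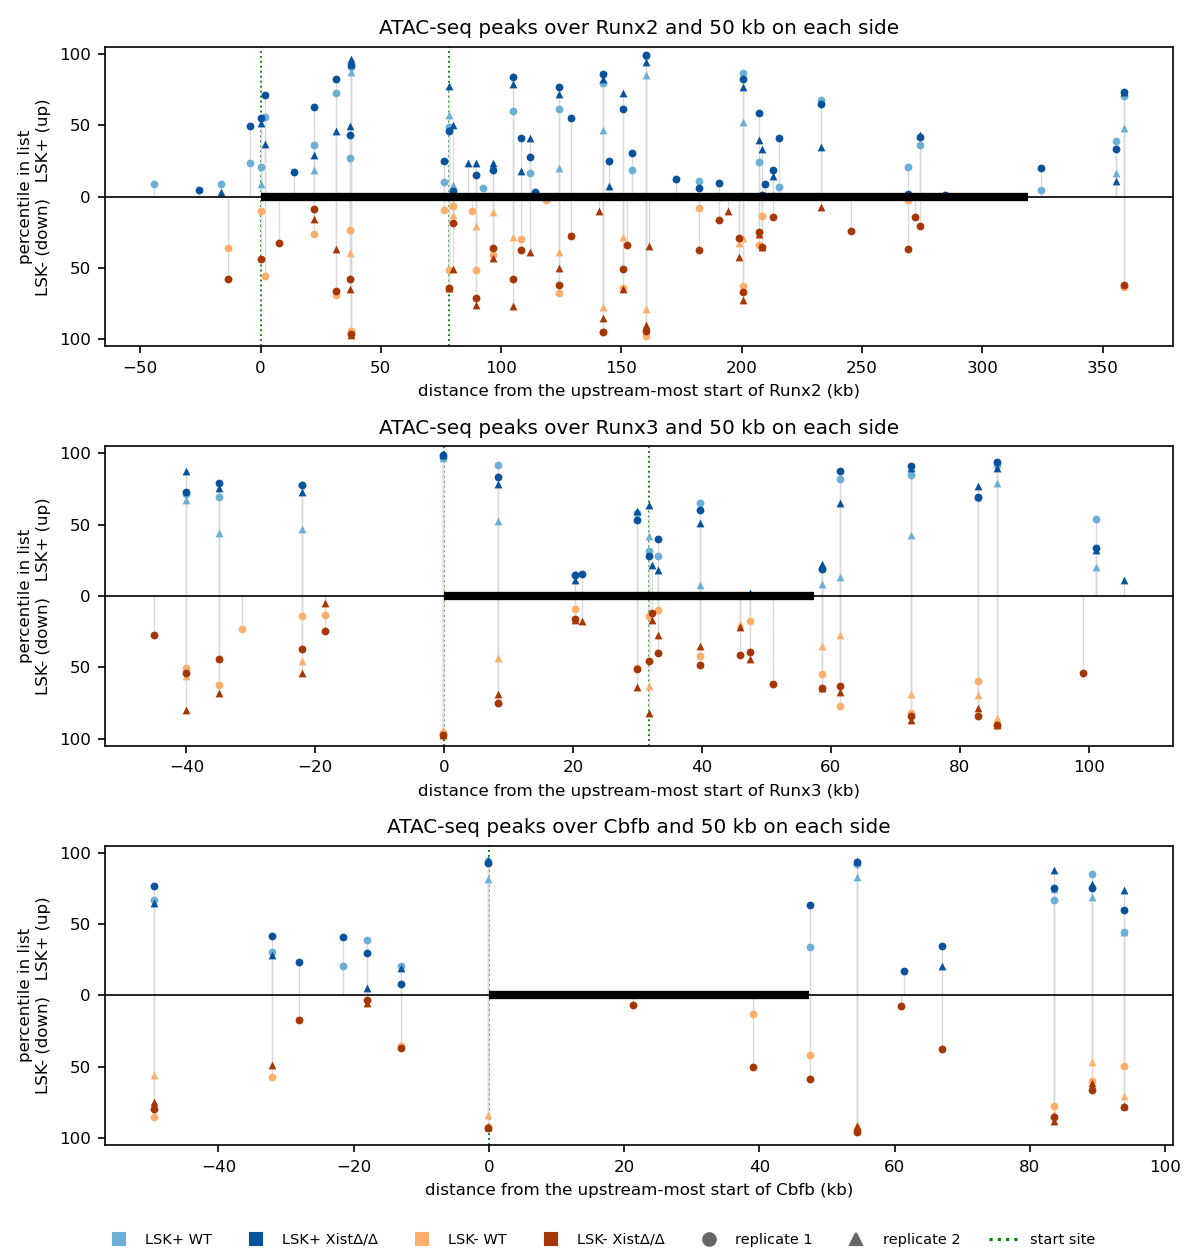
Peaks over Runx2, Runx3 and Cbfb, drawn as percentiles within each list against the distance from the upstream-most start in kb, with LSK+ libraries up, LSK- libraries down, gene bodies as black bars and starts as dotted lines. The distal start of Runx3 and the start of Cbfb are at 81.4 or higher in every library, whereas in Runx2 the highest points are at 160.0 kb in an intron and at the start of Supt3.

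At Runx3, the distal promoter was the strongest promoter of the family. The region (chr4:135119985-135120866) stood at 97.5 and 96.9 (LSK+ WT), 98.9 and 98.97 (LSK+ XistΔ/Δ), 95.9 and 94.2 (LSK- WT) and 97.3 and 97.6 (LSK- XistΔ/Δ). It contains the shared tandem RUNX word within 24 bp of its strongest summit. The cell types overlapped, and the difference of 1.85 points (SE 1.52) did not pass the threshold (adjusted p = 0.522). The proximal promoter (chr4:135151886-135152600) was weaker and varied, at 31.5 and 42.0 (LSK+ WT), 28.3 and 63.6 (LSK+ XistΔ/Δ), 14.3 and 63.2 (LSK- WT) and 45.6 and 82.2 (LSK- XistΔ/Δ). Further peaks at the proximal start, at +32.3 and +33.2 kb, stood at 40.3 or below.

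The proximal promoters of Runx2 and Runx3 followed the replicate number. The replicate 2 library ranked above the replicate 1 library in all 4 groups, except that both stood at 64.1 at Runx2 in LSK- XistΔ/Δ. In equal-length lists the proximal promoter of Runx2 was absent from the 4 replicate 1 libraries and stood at 57.1, 53.0, 54.3 and 24.7 in replicate 2 of LSK+ WT, LSK+ XistΔ/Δ, LSK- WT and LSK- XistΔ/Δ. The proximal promoter of Runx3 was likewise absent from replicate 1 and stood at 42.0, 22.95, 53.7 and 62.7 in replicate 2. That of Runx1 did so in part. In equal-length lists it stood at 0 and 31.1 (LSK+ WT), 0 and 46.4 (LSK+ XistΔ/Δ), 43.3 and 70.0 (LSK- WT) and 65.0 and 63.9 (LSK- XistΔ/Δ). In whole lists its replicate 2 value was the higher only in LSK+ XistΔ/Δ. Other regions had the opposite order. In both kinds of list, replicate 1 was above replicate 2 in all 4 groups at Runx1 +24.4 and +3.9 kb. The same was seen at Runx2 +160.0 kb and, in whole lists, at the distal Runx1 promoter. The replicate numbers differ in run code and in depth, and the part of either in these values was not tested.

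**Figure D3:**
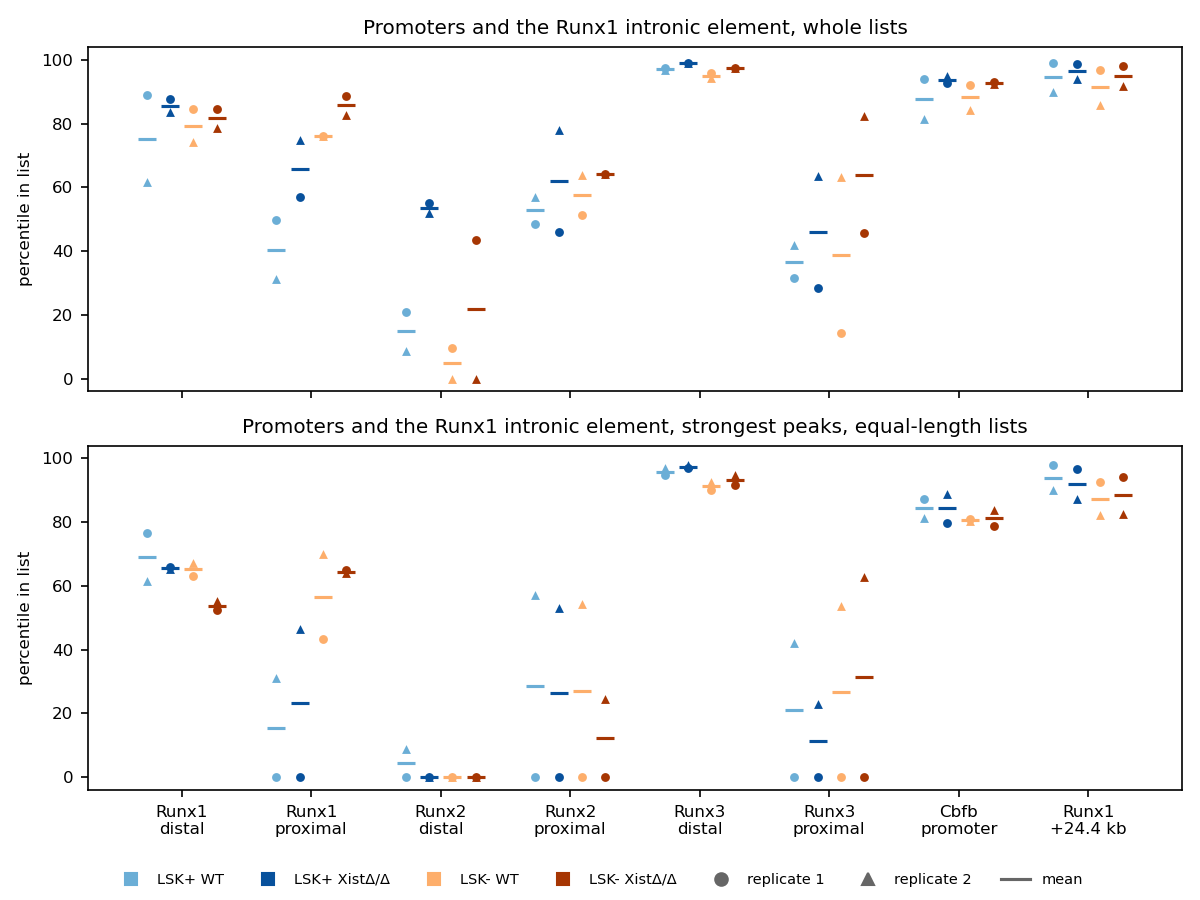
Percentile of the strongest peak at each promoter and in the Runx1 region at +24.4 kb in whole lists (top) and in equal-length lists (bottom), by group, with circles for replicate 1, triangles for replicate 2 and a line at the mean of the 2 libraries. In the top panel the distal promoter of Runx3, the Cbfb promoter and the intronic region are at 81.4 or higher in all 8 libraries and the distal promoter of Runx1 lies between 61.6 and 89.0, and in the bottom panel the proximal promoters of Runx2 and Runx3 are at 0 in replicate 1.

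Outside its promoters, Runx3 had strong regions on both sides of the gene. The region 85.8 kb from the distal start, downstream of the gene (chr4:135205810-135206810), stood between 78.9 and 94.0 and did not separate the cell types (-0.599 points, SE 3.43, adjusted p = 0.946). Regions at +72.4 kb (chr4:135192733-135193431, from 42.5 to 90.9) and +82.8 kb (chr4:135203277-135203627, from 0 to 83.9) lay beside it. The intronic region at +8.4 kb (chr4:135128510-135129308) was higher in LSK+ in equal-length lists, from 52.3 to 82.5 against 23.5 to 40.1 in LSK-. The region 40.1 kb upstream (chr4:135079906-135080919) ranged from 50.3 to 87.6. At +58.7 kb (chr4:135178761-135179593), downstream of the gene, LSK- libraries stood at 55.0, 35.1, 64.5 and 64.4 and LSK+ libraries at 19.2, 8.06, 19.2 and 22.4, and at +101.1 kb (chr4:135221550-135221987, inside Clic4) only LSK+ libraries had a peak, at 54.3, 20.6, 33.4 and 32.2.

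Cbfb, the common partner of the 3 RUNX proteins, had an open promoter in every library. The region (chr8:105170133-105172166) stood at 94.0 and 81.4 (LSK+ WT), 92.7 and 94.8 (LSK+ XistΔ/Δ), 92.0 and 84.3 (LSK- WT) and 93.0 and 92.3 (LSK- XistΔ/Δ). The cell types differed by 0.321 points (SE 3.38, adjusted p = 0.972). The gene body itself held 2 regions in introns, and other strong peaks of the window lay at the starts of neighbours (D230025D16Rik, B3gnt9, and Fbxl8 with Tradd).
Of its other regions, that at +89.2 kb (chr8:105259632-105260352, inside Tradd) was higher in LSK+ without overlap, at 84.9, 69.1, 75.3 and 77.9 against 60.5, 46.6, 66.3 and 61.5 in LSK- (18.1 points, SE 7.24, adjusted p = 0.289). The region 49.5 kb upstream (chr8:105120861-105121365) was absent from LSK+ WT replicate 2 and stood between 55.7 and 85.0 in the other libraries. Regions 32.1 and 12.9 kb upstream and at +47.5 kb were listed in 4 or 5 libraries, at up to 57.0, 36.8 and 63.0.

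The order of the promoters by mean percentile over the 8 libraries was Runx3 distal (97.1), Cbfb (90.6), Runx1 distal (80.5), Runx1 proximal (67.0), Runx2 proximal (59.1), Runx3 proximal (46.3) and Runx2 distal (23.7). Within each of the 8 libraries Runx3 distal ranked above Cbfb, although the lowest value of the first (94.2) was below the highest of the second (94.8). The ranges of all other neighbours in this order overlapped too. The order was not the same in both cell types. In LSK+ the distal Runx1 promoter was above the proximal one in 4 of 4 libraries (means of 80.5 and 53.1), whereas in LSK- the proximal one was higher in 3 of 4, with means of 80.9 and 80.4. In LSK+ the proximal promoter of Runx2 also had a higher mean (57.4) than that of Runx1. Between the cell types limma called 0 of the 8 member promoters and 0 of 16093 promoters in all, with an unadjusted p under 0.05 for 1 and 1622. With a replicate block it called 0 of 8 as well, where 0.46% of all promoters were called higher in LSK+ and 0.603% higher in LSK-. In equal-length lists with the block the lowest adjusted p of a member, over promoters alone, was 0.0657 at the proximal Runx1 promoter. A further annotated start of Runx1, 130.0 kb from the distal one, reached at most 15.1.

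To ask whether loss of Xist was accompanied by a change at these autosomal genes, XistΔ/Δ and WT libraries were compared. In whole lists, 24 of 108 member regions (22.2%) were higher in XistΔ/Δ in 4 of 4 pairs and 0 were lower, against 21.8% and 0.038% of all regions. The median difference of the member regions was 10.7 points, and that of all regions was 9.78, in the direction of the longer lists. In equal-length lists the median was 0.406 points for 49 members and -0.011 for all 41782 regions, 2 members were higher in 4 of 4 pairs (4.08%), against 3.34% of all, and 1 was lower (Cbfb +89.2 kb, by 17.8 points), against 3.59% of all. The 2 higher regions were the distal promoter of Runx3, where XistΔ/Δ exceeded WT by 1.68 points on average, and Runx1 +110.4 kb, by 16.3 points. In the limma fit 0 member regions passed the threshold for genotype, with a lowest adjusted p of 0.578, and 0 for the interaction of genotype and cell type. An unadjusted p under 0.05 was found for 11 and 3 member regions, and for 7588 and 2145 regions in all, respectively. The 17 alternative limma fits called 0 member regions for genotype as well.

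No promoter passed the threshold for genotype. The values here are from the limma fit over all regions, at the strongest region of each start. The largest whole-list differences were 27.8 points at the distal Runx2, 17.4 at the proximal Runx1 and 17.2 at the proximal Runx3 promoter (adjusted p = 0.578, 0.578 and 0.670). Weaker regions beside the proximal starts differed by 24.2 points at Runx2 +80.1 kb and 21.9 at Runx3 +33.2 kb (adjusted p = 0.578 for each). Neither of these was tested in equal-length lists. In equal-length lists the differences at the proximal promoters of Runx1 and Runx3 were 7.73 and -2.49 points. The distal Runx2 promoter was held there by LSK+ WT replicate 2 alone, at 8.77, and was not tested. Its mean was 2.19 in WT and 0 in XistΔ/Δ. The distal Runx1 promoter was 6.32 points higher in XistΔ/Δ in whole lists (SE 6.39, adjusted p = 0.672) and had a difference of -7.43 points in equal-length lists. For Cbfb the differences were 5.25 points (SE 3.38, adjusted p = 0.579) and 0.295 points.

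**Figure D4:**
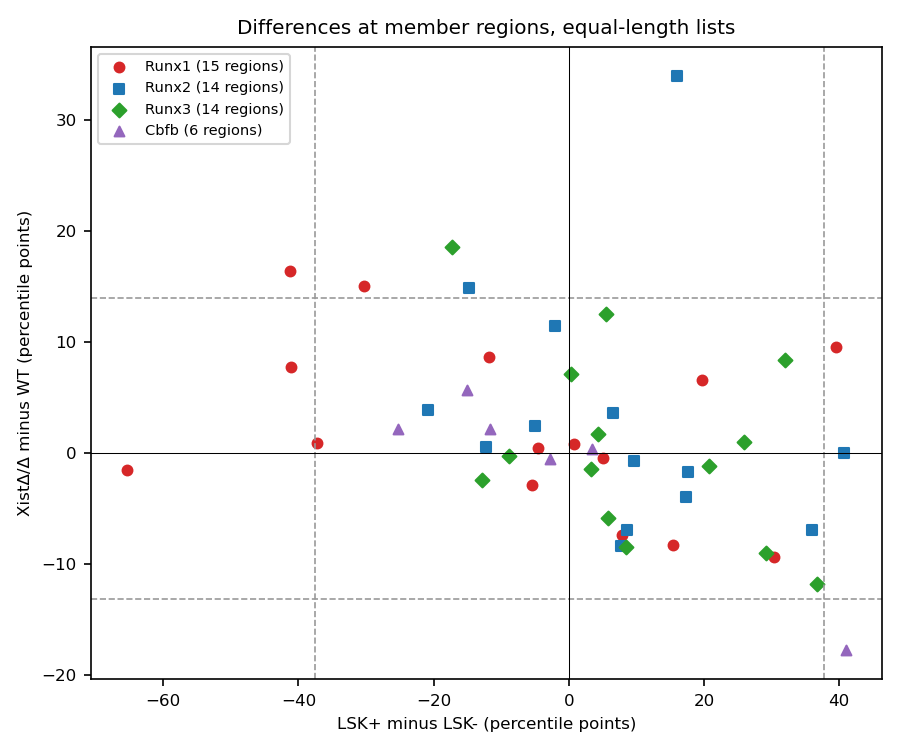
Difference between LSK+ and LSK- (horizontal axis) and between XistΔ/Δ and WT (vertical axis) in percentile points for the 49 member regions held by at least 2 equal-length lists. Dashed lines mark the 5th and 95th percentiles of the same differences over 41782 regions. Of the members, 43 lie between the lines for cell type and 43 between those for genotype, and the point furthest to the left, at -65.3, is Runx1 +61.2 kb.

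The number of member regions in a list followed the length of the list. From 37 regions in LSK+ WT replicate 2 to 110 in LSK- XistΔ/Δ replicate 1 were held, which was 0.115% to 0.136% of the peaks of each list when peaks were counted. The mean was 71.2 ± 24.8 in LSK+ and 77.8 ± 25.9 in LSK- (SD, n = 4 each, two-sided exact permutation p = 0.611). It was 89.5 ± 16.7 in XistΔ/Δ and 59.5 ± 20.8 in WT (SD, n = 4 each, two-sided exact permutation p = 0.167), a difference of 30 regions. The smallest p this design allows is 0.0556. Of the 154 regions, 27 were held by all 8 libraries (17.3% of all regions) and 46 by 1 library (25.3% of all), and 22 of those 46 were listed in LSK- XistΔ/Δ replicate 1, the deepest library.

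The motif content of the member regions was compared with that of all regions held by at least 2 libraries, in windows of 300 bp around the strongest summit. TGTGGT or TGCGGT was found in 48 of 108 member windows (44.4%) and in 35.3% of all windows. For the GATA motifs AGATAA and TGATAA the shares were 31.5% and 29.9%, and for the ETS motif AGGAAG they were 51.9% and 49.8%. CANNTG, the E-box, was found in 80.6% of member windows and 79.4% of all, with CAGCTG in 17.6% and 20.5% and CATCTG in 26.9% and 22.8%. TGAGTCA, the AP-1 motif, was found in 9.26% and 8.20%, and CCAAT in 24.1% and 30.5%. Both strands were searched and CAGCTG and CATCTG are cases of CANNTG. The median GC content was 51.8% in member windows and 49.3% in all.

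Among other genes of the pathway, the promoters of 22 partners and co-regulators of RUNX proteins were examined. Of these, 21 had a peak in all 8 libraries and Tle2, which encodes a Groucho-type co-repressor, had none. Limma called 0 of 21 between the cell types, and 0 were without overlap, against 2.06% of 16093 promoters higher in LSK+ and 1.77% higher in LSK-. Their median difference was -1.09 points, and that of all promoters -1.08. Of 24 target genes of RUNX1 in blood cells, 20 were tested and 0 were called by limma, while 1 was higher in LSK+ without overlap and 0 were higher in LSK-. With the replicate block limma called 1 of them in whole lists, where 0.46% of all promoters were called higher in LSK+, and 1 in equal-length lists (1.06% of all), both higher in LSK+. The second was Pf4, which encodes a platelet chemokine and was named after its values were seen (adjusted p = 0.0180). Its fit, the block in equal-length lists, was also chosen after the data were seen. Promoters of Il3, Cd4, Cd8a and Ly6a had no peak. The median difference of the targets was 0.781 points.

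The promoters whose percentiles followed those of each member most closely over the 8 libraries were taken from 11907 promoters held by all. They were Glt28d2, Gm37240 and Dcaf7 for the distal promoter of Runx1 (Pearson r from 0.989 to 0.991), and Clock, Gspt1 and Ext1 for the proximal promoter of Runx2 (0.959 to 0.968). For the distal promoter of Runx3 they were Il12a, Plpp3 and Ccdc30 (0.975 to 0.983), and for Cbfb they were Ipo4, Cyp4f16 and Ldlrad4 (0.989 to 0.994). All points share the libraries' differences in depth and list length, and r exceeded 0.9 for 8.68% of promoters with Runx1, 1.02% with Runx2, 0.722% with Runx3 and 7.42% with Cbfb.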

How the data were processed

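Female LSK+ and LSK- cells of WT and XistΔ/Δ mice were profiled by ATAC-seq. The authors trimmed reads with Trim Galore, aligned them to mm10 with Bowtie2 2.3.5.1, removed poorly mapped and mitochondrial reads with SAMtools 1.10 and called peaks in each library with MACS2 2.2.7.1. Neither a Tn5 shift nor duplicate removal is given in the sources used here. The deposited lists give each peak a fold enrichment (ratio over local background), a −log10 p-value, a −log10 q-value and an integer score, and hold no read counts.

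Peaks on the autosomes and X (501728 in all) were merged into 123260 regions, of which 92019 were held by at least 2 libraries. Peaks were ranked within a list by −log10 p, and a region took the percentile of its strongest peak. Fragments at summits were solved from the deposited fold and −log10 p values. Percentiles were compared with limma 3.58.1 (R 4.3.3, trend, 4 groups, no block, Benjamini-Hochberg over all regions, threshold 0.05), after a check on simulated data. Counts of regions per library were compared by exact permutation. Promoters spanned 1 kb on either side of the starts.

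Named regions were every promoter, the Runx1 region closest to 23 kb and the 5 strongest other regions of each gene by mean percentile, and regions where the cell types did not overlap were added after their values were seen. Members and lists were chosen with earlier results of these data known. Alternatives were equal-length lists, ranking by fold, a stricter q, 50% cover, other filters, a replicate block, no trend and leaving out each library. Some items are not reported here.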

Additional observations from a re-analysis of the deposited data

Results flagged for a closer look

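At 3 regions, both pairs of same-numbered libraries of one group moved one way and both pairs of the other group the opposite way under the same contrast, by percentile points. The share of all regions with this pattern was not counted, so no excess at these genes is claimed. The direction rests on matching libraries by replicate number, which the labels do not give as a shared source, and these differences were not tested beyond the limma interaction, which called none of them. At Runx1 +24.4 kb in equal-length lists, XistΔ/Δ minus WT was -1.89 in LSK+ and 1.03 in LSK-, a difference of -2.92. At Runx2 +142.4 kb in equal-length lists, XistΔ/Δ minus WT was 10.2 in LSK+ and -2.53 in LSK-, a difference of 12.7.

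Runx2 +124.2 kb met this pattern under 3 views. In whole lists, LSK+ minus LSK- was -12.0 in WT and 18.2 in XistΔ/Δ, a difference of -30.2. In equal-length lists it was -3.03 in WT and 38.4 in XistΔ/Δ, a difference of -41.4. The same equal-length values read by genotype gave 19.0 in LSK+ and -22.4 in LSK-, a difference of 41.4. Neither LSK- XistΔ/Δ library held this region in equal-length lists, although both held it in whole lists. The values of -22.4 and 38.4 therefore rest on the percentile given where no peak was listed. In whole lists XistΔ/Δ minus WT in LSK- had the other sign, at 3.21.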

How the results depend on the processing

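The lists give no read depth, and the number of peaks, the background pileup and the genotype moved together, so their parts cannot be told apart in whole lists. In equal-length lists the difference in held regions was 2.5 for LSK+ minus LSK- and -2.0 for XistΔ/Δ minus WT, opposite to whole lists. Regions higher in XistΔ/Δ in 4 of 4 pairs were 2 of 49 there and 24 of 108 in whole lists, against 3.34% and 21.8% of all regions. Equal-length lists hold the same number of peaks by construction, and the part of depth in their ranks was not tested.

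Replicate numbers were not fitted as a block in the reported test, although counts of pairs match libraries by number. Deviations from group means of same-numbered libraries correlated at 0.0171 between LSK+ WT and LSK- XistΔ/Δ. Between the other pairs of groups they correlated at 0.223 to 0.457, so that not all 6 were above 0.1. Each number shared a run code, and the labels do not say what else a number shares. With a replicate block, 2 member regions were called between the cell types in whole lists and 8 in equal-length lists, a combination chosen after seeing the data. Without trend and in equal-length lists without the block 2 were called. The other fits called 0, as did all 8 that left out a library, and no fit called a member for genotype or interaction. Regions without overlap were 8 for LSK+ higher in equal-length lists, against 9.24% of all regions, and 1 for LSK- higher with 50% cover. When a library is left out, fewer libraries must be apart. The shares of all regions with 50% cover or with a library left out are not given here, so no excess at these genes is claimed. Leaving out each library gave 3 to 16 for LSK+ higher, with 16 without LSK+ WT replicate 2, 7 without LSK- XistΔ/Δ replicate 2 and 5 without LSK- WT replicate 1. It gave 5 to 12 for LSK- higher, with 12 without LSK- WT replicate 2 and 9 without LSK- WT replicate 1 or LSK+ XistΔ/Δ replicate 2. Held regions then ranged from -15.8 to 2.75 for LSK+ minus LSK-, above 0 without LSK+ WT replicate 2 (2.75), LSK- WT replicate 1 (1.75) or LSK- XistΔ/Δ replicate 1 (2.5), and from 20.8 to 39.2 for XistΔ/Δ minus WT. Over whole regions in place of windows, RUNX, GATA and ETS motifs were found in 62.0%, 41.7% and 73.1% of member regions and in 52.0%, 44.5% and 67.5% of all, so that the GATA share was below that of all regions and not above it as in windows.

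LSK+ minus LSK- changed sign, with no call on either side, as follows, and the cause was not tested. With 50% cover it was 4.54 at the proximal Runx1 promoter (+128.7 kb), 7.93 at Runx2 +80.1 kb and 1.39 at Runx3 +31.8 kb. Under the same setting it was -12.5 at Runx3 +33.2 kb, 20.7 at Runx3 +85.8 kb, 11.05 at Cbfb -49.5 kb and 10.8 at Cbfb -32.1 kb. Ranked by fold it was -1.13 at Runx2 +124.2 kb, -0.828 at Runx3 -0.2 kb, 0.177 at Runx3 +85.8 kb, -2.22 at Cbfb -0.1 kb and 1.33 at Cbfb +47.5 kb. With a −log10 q of at least 5 it was -0.577 at the distal Runx1 promoter and 0.0426 at Runx3 +32.3 kb. In equal-length lists, with or without the block, it was 7.79 at Runx2 +78.4 kb, 5.45 at Runx3 +72.4 kb and 3.30 at Runx3 +85.8 kb. XistΔ/Δ minus WT, followed under every alternative for promoters and Runx1 +24.4 kb, changed sign in equal-length lists, with or without the block, to -0.433 at Runx1 +24.4 kb, -7.43 at the distal Runx1 promoter, -8.41 at Runx2 +78.4 kb and -2.49 at Runx3 +31.8 kb, to -0.335 at Runx1 +24.4 kb with 50% cover and to -0.0275 at Runx2 +76.3 kb ranked by fold. Among the other named regions it changed sign in equal-length lists to -2.87 at Runx1 +3.9 kb and -1.52 at +61.2 kb, to -6.96 at Runx2 +358.9 kb, -0.0620 at +200.6 kb, -0.726 at +160.0 kb and -1.71 at +124.2 kb, to -9.05 at Runx3 +8.4 kb, -1.42 at +85.8 kb and -0.250 at +58.7 kb and to -17.8 at Cbfb +89.2 kb. Leaving out each library in turn also turned signs. LSK+ minus LSK- then ranged from -0.452 to 5.08 at Runx1 +24.4 kb, -13.7 to 2.29 at +3.9 kb and -6.83 to 6.89 at the distal promoter, from -0.617 to 8.86 at Runx2 +160.0 kb, -7.16 to 13.4 at +124.2 kb, -18.4 to 4.98 at +80.1 kb and -11.4 to 4.54 at +78.4 kb, from -22.2 to 2.23 at Runx3 +31.8 kb, -7.10 to 3.90 at +32.3 kb, -4.86 to 9.22 at +33.2 kb, -14.0 to 7.05 at +72.4 kb and -3.85 to 2.65 at +85.8 kb, and from -15.7 to 12.8 at Cbfb -32.1 kb, -15.2 to 3.18 at -12.9 kb, -2.83 to 3.48 at the promoter and -16.7 to 14.8 at +47.5 kb. XistΔ/Δ minus WT ranged from -0.0302 to 5.50 at Runx1 +24.4 kb, -0.539 to 13.2 at its distal promoter, -0.158 to 15.8 at Runx2 +78.4 kb and -4.93 to 7.45 at +76.3 kb.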
